A study of Mus musculus with 18 samples.

Results

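Naive CD4 T cells carrying a transgene for the whole miR-23 cluster (cluster Tg, 3 libraries) were compared with naive CD4 T cells carrying a transgene for miR-24 alone (miR-24 Tg, 3 libraries). These are 6 of the 18 libraries of the series, which holds 6 genotypes with 3 libraries each. Wild-type cells (WT), miR-23 Tg cells and miR-27 Tg cells are given beside the comparison as levels. All mice were C57BL/6, the transgenes acted in T cells, and the cells were sorted by FACS as CD4+CD25-CD62Lhi. No source used here gives the promoter that drove each transgene, the number of founder lines, the age of the mice or whether each library came from a separate mouse. The spread behind the p-values is therefore that of these 6 libraries and may be technical. Of 23953 gene rows, 10594 reached 1 RPKM (reads scaled to gene length and to library size) in at least 3 of the 6 libraries and were tested. At the edge of that filter, 245 gene rows reached 1 RPKM in exactly 3 of the libraries and 255 in exactly 2.

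MicroRNAs are short RNAs that guide Argonaute proteins to messenger RNAs, mainly through a seed of bases near their 5′ end that pairs with sites in 3′ untranslated regions (UTRs), and targeted messengers are usually degraded or translated less. A miR-23, a miR-27 and a miR-24 are cut from the same primary transcript of the miR-23 cluster, and the mouse genome holds a pair of such clusters. In T cells these microRNAs are known as regulators of helper T cell differentiation. Cluster Tg cells therefore differ from miR-24 Tg cells by design in carrying the miR-23 and miR-27 hairpins as well, and the comparison asks what those add on top of miR-24.

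The mature sequences are shown because the seeds decide which sites were searched for. They are from RefSeq in the GRCm38.p6 build, written 5′ to 3′ with the seed (bases 2 to 8) in capitals.
miR-23a-3p: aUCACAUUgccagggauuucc
miR-27a-3p: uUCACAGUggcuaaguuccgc
miR-27b-3p: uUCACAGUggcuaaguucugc
miR-24-3p: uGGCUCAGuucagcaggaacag
On the plus strand of chromosome 8, miR-23a-3p lies at chr8:84208563-84208583, miR-27a-3p at chr8:84208727-84208747 and the miR-24-3p of Mir24-2 at chr8:84208875-84208896. The seeds of miR-27a and miR-27b are the same. The seed of miR-23 begins like that of miR-27 and then departs from it, and the seed of miR-24 is unrelated to both. The other cluster lies on chromosome 13 and also encodes miR-23b-3p, and its Mir24-1 hairpin gives the same mature miR-24-3p as Mir24-2.

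The libraries were similar in depth, and some carried traces of other cells that touch the results below. Relative to miR-24 Tg replicate 1, the depth read from the smallest RPKM values was 1.07, 1.01 and 1.14 in the cluster Tg libraries and 1.00, 0.759 and 0.751 in the miR-24 Tg libraries. CD4 T cell markers were present throughout, with Cd3e at 283 to 302 RPKM in cluster Tg and 267 to 352 RPKM in miR-24 Tg libraries. Traces of other cells were highest in miR-24 Tg replicate 1, but B cell traces were not confined to it. Cd79b read 6.17 to 15.2 RPKM in cluster Tg, 6.67 to 27.7 RPKM in miR-24 Tg and 1.46 to 2.44 RPKM in WT libraries. The summed level of the 21 B cell genes was 70.0, 65.4 and 96.3 RPKM in cluster Tg libraries, against 199, 66.5 and 95.8 RPKM in miR-24 Tg libraries. The summed level of the 21 myeloid and neutrophil genes in the table was 46.5, 29.7 and 31.0 RPKM in cluster Tg libraries, against 189, 58.5 and 24.3 RPKM in miR-24 Tg libraries. Platelet markers Pf4 and Ppbp were listed at 0 in all 6. Cluster Tg replicate 2 held both the female transcript Xist (45.8 RPKM) and the Y-linked Ddx3y (20.1 RPKM), whereas each of the other 5 libraries had one or the other above 40 RPKM, Xist in cluster Tg replicate 1 and miR-24 Tg replicates 2 and 3 and Ddx3y in cluster Tg replicate 3 and miR-24 Tg replicate 1. In addition, miR-24 Tg replicate 2 stood apart on the second principal component (at -44.9, the other 5 between -8.88 and 26.5), and on the first component it lay among the cluster Tg libraries. Of the miR-27 Tg libraries, replicate 3 stood apart in an earlier analysis of these data, so their levels are given as ranges or with their SD.

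The hairpins checked the labels. Mir23a read 176364, 64695 and 32829 RPKM in cluster Tg libraries, against 0, 382 and 96.7 RPKM in miR-24 Tg libraries. Mir27a read 172309, 67414 and 35501 RPKM in cluster Tg libraries, against 239, 89.3 and 588 RPKM in miR-24 Tg libraries. Every cluster Tg library was far above every miR-24 Tg library for both hairpins, with log2 differences of 11.07 (SE 2.16, adjusted p = 0.045) for Mir23a and 8.32 (SE 0.88, adjusted p = 0.019) for Mir27a by limma. The adjusted p of Mir23a was above 0.05 with a pseudocount of 0.1 (0.075), without the filter on level (0.086) and in each of the 6 fits without 1 library (0.052 to 0.15), while its log2 difference stayed between 8.54 and 12.83. Mir27a was likewise not called without the filter (0.058) or in 5 of those 6 fits, the exception being that without miR-24 Tg replicate 2.

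Mir24-2, the miR-24 hairpin that both transgenes raise, read 70491, 26689 and 16951 RPKM in cluster Tg libraries, against 13888, 49237 and 21686 RPKM in miR-24 Tg libraries, and 18.9 to 46.0 RPKM in WT. The groups overlapped, and the log2 difference of 0.37 (SE 1.26, adjusted p = 0.89) turned negative under quantile normalisation and without cluster Tg replicate 1 or miR-24 Tg replicate 1. The 3 hairpin rows of the other cluster held values far below what a single read is worth. The host transcript row 2010111I01Rik read 61.3, 50.6 and 49.3 RPKM in cluster Tg libraries, against 36.4, 40.7 and 38.2 RPKM in miR-24 Tg libraries, without overlap but not called (log2 difference 0.47, SE 0.10, adjusted p = 0.056). Hairpin rows come from libraries made for longer RNA, so they show the precursor region and any read over it, not the mature microRNA.

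**Figure D1:**
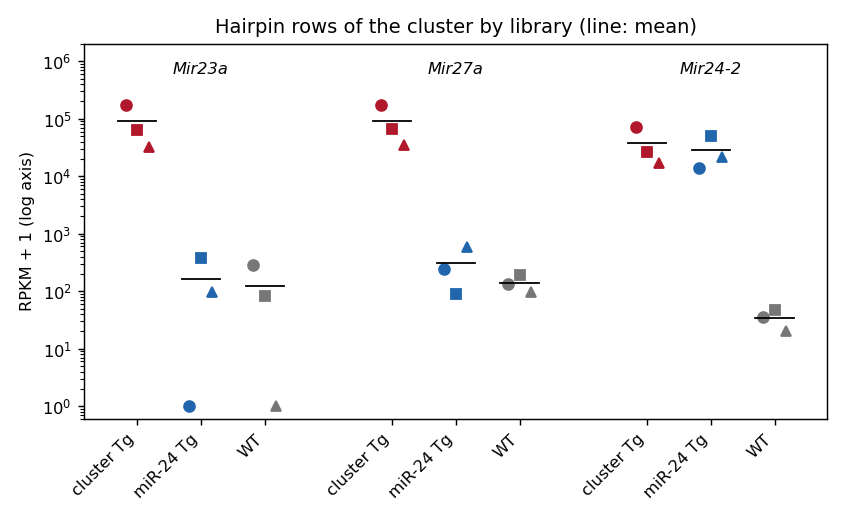
RPKM + 1 on a log axis for the Mir23a, Mir27a and Mir24-2 rows in 3 cluster Tg, 3 miR-24 Tg and 3 WT libraries (circle, square and triangle are replicates 1, 2 and 3, the line is the mean). Mir23a and Mir27a are at 32829 RPKM or more in cluster Tg libraries and at 588 RPKM or less in miR-24 Tg and WT libraries, whereas Mir24-2 overlaps between cluster Tg and miR-24 Tg.

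Across the transcriptome, 549 genes passed an adjusted p of 0.05 (Benjamini-Hochberg over 10594 genes, limma on log2(RPKM + 1)), which is 5.18% of those tested. Of these, 300 (2.83%) were higher and 249 (2.35%) lower in cluster Tg cells, and 87 differed by at least 1 on the log2 scale, 58 higher and 29 lower. The median difference over all tested genes was 0.0016. All 549 called genes had libraries that did not overlap, but so did 15.7% of all genes upward and 15.9% downward. The count rests on each library: without cluster Tg replicates 1, 2 and 3 it was 11, 4 and 12, and without miR-24 Tg replicates 1, 2 and 3 it was 40, 182 and 4. When 16 libraries of the series shared the estimate of spread, it was 1697, and between 1004 and 1600 with any 1 of the 6 libraries left out.

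Among the 15 genes with the largest called increases, the neighbouring membrane protein genes Tmem176a and Tmem176b came first. Tmem176a read 67.5, 33.6 and 33.8 RPKM in cluster Tg libraries, against 10.3, 4.51 and 5.31 RPKM in miR-24 Tg libraries, a log2 difference of 2.57 (SE 0.37, adjusted p = 0.029). Tmem176b read 103, 52.7 and 56.4 RPKM in cluster Tg libraries, against 14.8, 9.58 and 11.4 RPKM in miR-24 Tg libraries (2.43, SE 0.28, adjusted p = 0.022). Both were above all miR-24 Tg libraries in every cluster Tg library, and highest in cluster Tg replicate 1. In the other genotypes Tmem176b averaged 82.5 ± 49.4 RPKM in miR-27 Tg, 3.06 ± 0.35 RPKM in miR-23 Tg and 3.80 ± 1.44 RPKM in WT (SD, n = 3 each).

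Cacnb3, a beta subunit of voltage-gated calcium channels, read 19.9, 17.7 and 15.8 RPKM in cluster Tg libraries, against 1.56, 2.84 and 3.79 RPKM in miR-24 Tg libraries (log2 difference 2.37, SE 0.23, adjusted p = 0.017). Its level was 22.5 to 25.8 RPKM in miR-27 Tg and 3.76 to 4.89 RPKM in WT. Gpr83, a G protein-coupled receptor best known from regulatory T cells, read 7.53, 8.92 and 9.76 RPKM in cluster Tg libraries, against 1.72, 1.32 and 1.56 RPKM in miR-24 Tg libraries (1.94, SE 0.12, adjusted p = 0.0091). Here WT libraries ranged from 3.44 to 6.82 RPKM, above every miR-24 Tg library and below every cluster Tg library. Tmie, a membrane protein known from mechanotransduction in hair cells, showed the same layout, averaging 55.6 ± 5.15 RPKM in cluster Tg, 14.8 ± 2.18 RPKM in miR-24 Tg and 31.7 ± 4.63 RPKM in WT (SD, n = 3 each).

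The other genes of that group included several surface and secreted proteins that were low in WT. The angiopoietin-like protein Angptl2 averaged 6.78 ± 0.34 RPKM in cluster Tg and 0.98 ± 0.45 RPKM in miR-24 Tg cells (SD, n = 3 each). The receptor tyrosine kinase Axl averaged 10.3 ± 4.04 RPKM in cluster Tg, 2.00 ± 0.81 RPKM in miR-24 Tg and 0.77 ± 0.19 RPKM in WT. The GPI-anchored protein neuritin (Nrn1) averaged 18.6 ± 5.51 RPKM in cluster Tg, 5.09 ± 2.72 RPKM in miR-24 Tg and 1.63 ± 0.14 RPKM in WT. These 3 genes rose by 2.00, 1.89 and 1.73 on the log2 scale with adjusted p-values of 0.013, 0.033 and 0.046. The cytokine Tgfb3 (log2 difference 1.65), the proteoglycan Spock2 (1.47), the membrane glycoprotein Gpm6b (1.83), the tripartite motif protein Trim16 (1.82) and the creatine kinase Ckb (1.38) completed the group together with Oas1a and Oas2, described with the interferon genes. Trim16 read 7.81, 4.14 and 3.77 RPKM in cluster Tg libraries, against 0.597, 0.941 and 0.582 RPKM in miR-24 Tg libraries. It therefore passed the filter on level through the cluster Tg libraries alone.

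**Figure D2:**
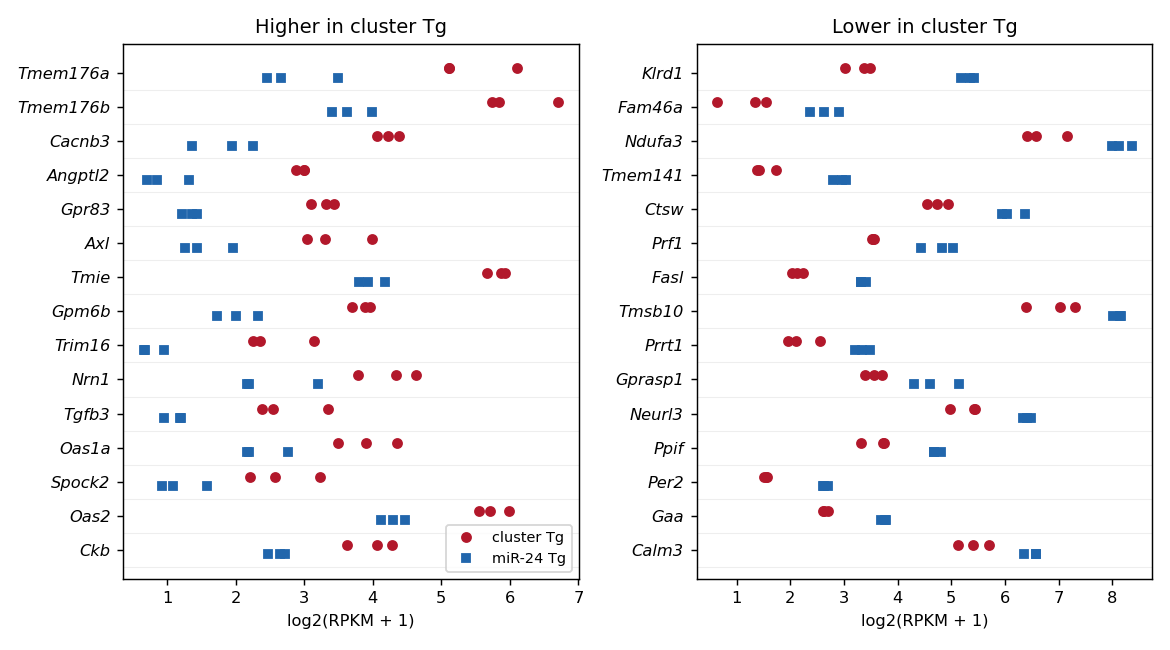
Expression on the log2(RPKM + 1) scale in each of 3 cluster Tg libraries (red circles) and 3 miR-24 Tg libraries (blue squares) for the 15 called genes with the largest increase (left) and the 15 with the largest decrease (right), among genes averaging at least 5 RPKM in a genotype. Within each gene the circles and squares do not overlap, which the choice of genes required.

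Klrd1 had the largest called decrease among genes averaging at least 5 RPKM in a genotype. It encodes the CD94 chain of natural killer receptors and read 10.2, 7.07 and 9.34 RPKM in cluster Tg libraries, against 41.9, 35.2 and 39.6 RPKM in miR-24 Tg libraries (log2 difference -2.02, SE 0.14, adjusted p = 0.0091). The miR-24 Tg libraries were the high ones, as WT libraries read 9.40 to 14.5 RPKM. Ctsw, the cathepsin of cytotoxic cells, averaged 25.9 ± 3.63 RPKM in cluster Tg, 68.7 ± 11.1 RPKM in miR-24 Tg and 57.9 ± 7.26 RPKM in WT (SD, n = 3 each), a log2 difference of -1.37 (SE 0.15, adjusted p = 0.020).

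Prf1, the pore-forming perforin, read 10.5, 10.6 and 10.8 RPKM in cluster Tg libraries, against 27.4, 20.7 and 31.8 RPKM in miR-24 Tg libraries (log2 difference -1.23, SE 0.15, adjusted p = 0.025). Fasl, the death ligand, read 3.08, 3.38 and 3.70 RPKM in cluster Tg libraries, against 9.61, 8.97 and 9.01 RPKM in miR-24 Tg libraries (-1.22, SE 0.08, adjusted p = 0.0091). The spread within each genotype was small beside the gap for both. Their levels were 1.65 to 4.04 RPKM for Prf1 and 2.02 to 3.48 RPKM for Fasl in miR-27 Tg, and 13.2 to 16.7 RPKM and 6.11 to 7.17 RPKM in WT. Other genes known from cytotoxic lymphocytes, named here after their values were seen, were not called and went in both directions. Cst7 averaged 22.2 ± 3.87 RPKM in cluster Tg and 37.9 ± 9.18 RPKM in miR-24 Tg cells (adjusted p = 0.085). Ccl5 and Gzma also averaged lower in cluster Tg cells, whereas Gzmk, Nkg7 and Eomes averaged higher there. The granzyme Gzmk averaged 14.4 ± 5.64 RPKM in cluster Tg and 3.84 ± 1.36 RPKM in miR-24 Tg cells (adjusted p = 0.0504), the granule protein Nkg7 31.6 ± 16.8 and 18.8 ± 6.99 RPKM in the same order (adjusted p = 0.42), and the T-box factor Eomes 7.51 ± 2.43 and 4.60 ± 0.74 RPKM (adjusted p = 0.21).

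Of the 4 tested natural killer receptor genes, Klrd1 and Cd160 fell (50%, against 2.35% of all genes) and none rose. Klrk1 (0.49 ± 0.092 RPKM in cluster Tg, 2.10 ± 1.06 RPKM in miR-24 Tg) and Klrb1f (4.96 ± 1.81 and 1.58 ± 0.65 RPKM in the same order) did not pass the test. With 4 genes tested, the list's share of calls rests on Klrd1 and Cd160. Without Klrd1, the list's summed level was 12.6, 7.72 and 6.72 RPKM in cluster Tg libraries, against 15.1, 6.48 and 7.89 RPKM in miR-24 Tg libraries, which overlapped. Ncr1, a defining natural killer marker, was at 0.076, 0.27 and 0.50 RPKM in cluster Tg libraries, against 1.20, 0.072 and 0.073 RPKM in miR-24 Tg libraries, so it was near 0 in 2 of the 3 miR-24 Tg libraries in which Klrd1 was high. Of 10 tested CD8 lineage and thymocyte genes, Ctsw fell (10%, against 2.35% of all genes) and none rose. Cd8b1 averaged 33.3 ± 5.07 RPKM in cluster Tg and 34.2 ± 7.39 RPKM in miR-24 Tg cells. In these bulk libraries, fewer cells of a type and less RNA per cell cannot be told apart.

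The other large decreases were of varied function. Fam46a, a noncanonical poly(A) polymerase, averaged 1.34 ± 0.70 RPKM in cluster Tg, 5.30 ± 1.16 RPKM in miR-24 Tg and 8.40 ± 1.98 RPKM in WT (SD, n = 3 each; log2 difference -1.46). Gaa, the lysosomal enzyme that breaks down glycogen, averaged 5.26 ± 0.24 RPKM in cluster Tg and 12.4 ± 0.53 RPKM in miR-24 Tg cells (-1.10, SE 0.07, adjusted p = 0.0091). The clock gene Per2 averaged 1.90 ± 0.059 RPKM in cluster Tg and 5.26 ± 0.21 RPKM in miR-24 Tg cells (-1.11, SE 0.08, adjusted p = 0.0091). For Gaa and Per2 the libraries of each genotype lay close together. The ubiquitin ligase gene Neurl3, the calmodulin gene Calm3, the actin-binding Tmsb10, the complex I subunit Ndufa3, the receptor-sorting Gprasp1, Prrt1 and Tmem141 fell by 1.09 to 1.44 on the log2 scale.

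Type I interferons signal through JAK kinases and STAT factors to a shared set of antiviral genes, and that set was the gene list with the most calls. Of 40 interferon-stimulated genes, 38 were tested, 15 were higher in cluster Tg cells and none was lower, against 2.83% and 2.35% of all genes. The median log2 difference of the 38 was 0.80, 36 of the 38 were positive, and the libraries of 30 did not overlap upward (78.9%, against 15.7% of all genes). The summed level of the list was 2507, 2123 and 2157 RPKM in cluster Tg libraries, against 1755, 1416 and 1734 RPKM in miR-24 Tg libraries.

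Oas1a, Oas2 and Oas3, oligoadenylate synthetases that sense double-stranded RNA and activate RNase L, rose, while other genes of that family were not called. Oas2 read 62.4, 51.2 and 45.9 RPKM in cluster Tg libraries, against 18.7, 16.3 and 21.1 RPKM in miR-24 Tg libraries (log2 difference 1.46, SE 0.14, adjusted p = 0.016). Oas3 read 23.7, 23.4 and 19.5 RPKM in cluster Tg libraries, against 10.2, 6.71 and 9.67 RPKM in miR-24 Tg libraries (1.25, SE 0.16, adjusted p = 0.026). Oas1a averaged 14.5 ± 4.57 RPKM in cluster Tg and 4.28 ± 1.29 RPKM in miR-24 Tg cells (1.54, SE 0.26, adjusted p = 0.037). Reads of Oas1a may be shared with its near-identical paralogs, so its level is uncertain. Oas1b averaged 13.7 ± 1.30 RPKM in cluster Tg and 14.6 ± 4.79 RPKM in miR-24 Tg cells (adjusted p = 0.94). The synthetase-like Oasl1 (12.5 ± 2.60 and 6.76 ± 1.30 RPKM in the same order, adjusted p = 0.059) and Oasl2 (29.9 ± 8.32 and 13.8 ± 2.87 RPKM, adjusted p = 0.055) did not pass either.

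The dynamin-like antiviral GTPase Mx2 read 11.7, 9.48 and 9.29 RPKM in cluster Tg libraries, against 3.97, 3.80 and 2.66 RPKM in miR-24 Tg libraries (log2 difference 1.32, SE 0.15, adjusted p = 0.022). Ifit2, which binds viral RNA, read 59.6, 51.7 and 57.5 RPKM in cluster Tg libraries, against 33.9, 29.7 and 30.9 RPKM in miR-24 Tg libraries (0.82, SE 0.08, adjusted p = 0.018). For Ifit2 the miR-24 Tg mean lay within the WT range of 25.4 to 32.8 RPKM, and for Oas2 it lay below the WT range of 24.6 to 28.4 RPKM. In miR-27 Tg libraries Oas2 ranged from 61.3 to 120 RPKM and Mx2 from 11.4 to 17.8 RPKM. Ifit2 ranged there from 24.2 to 68.4 RPKM and Oas3 from 12.2 to 47.0 RPKM. For these genes the lowest library, replicate 3, did not exceed the WT range, which was 10.3 to 13.6 RPKM for Oas3. The other 10 called members were Ifit1, Ifit3, Isg20, Rsad2, Usp18, Ifih1, Dhx58, Eif2ak2, Cmpk2 and Herc6, with log2 differences between 0.54 and 1.28.

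Some abundant members of the list did not pass the test. Bst2, the tetherin gene, averaged 135 ± 4.12 RPKM in cluster Tg and 108 ± 10.8 RPKM in miR-24 Tg cells (0.33, SE 0.09, adjusted p = 0.097). Of 37 tested genes on a separate list of cytokine receptors and JAK-STAT members, 1 rose and 2 fell (2.70% and 5.41%, against 2.83% and 2.35% of all genes). Ifnar2, a subunit of the type I interferon receptor, rose (47.1 ± 1.69 RPKM in cluster Tg, 33.8 ± 3.57 RPKM in miR-24 Tg, adjusted p = 0.043). Ifngr1, a subunit of the interferon gamma receptor, fell (63.2 ± 6.87 and 110 ± 12.5 RPKM in the same order, adjusted p = 0.031). Their partner chains Ifnar1 and Ifngr2 were not called (adjusted p = 0.26 and 0.19). The median of the interferon list stayed between 0.60 and 0.89 under every alternative, but its 15 calls became 0 without any 1 cluster Tg library or without miR-24 Tg replicate 3, 3 without miR-24 Tg replicate 1 and 6 without miR-24 Tg replicate 2. In fits that shared the spread over 16 libraries it was 28, and 21 to 29 with 1 library left out.

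**Figure D3:**
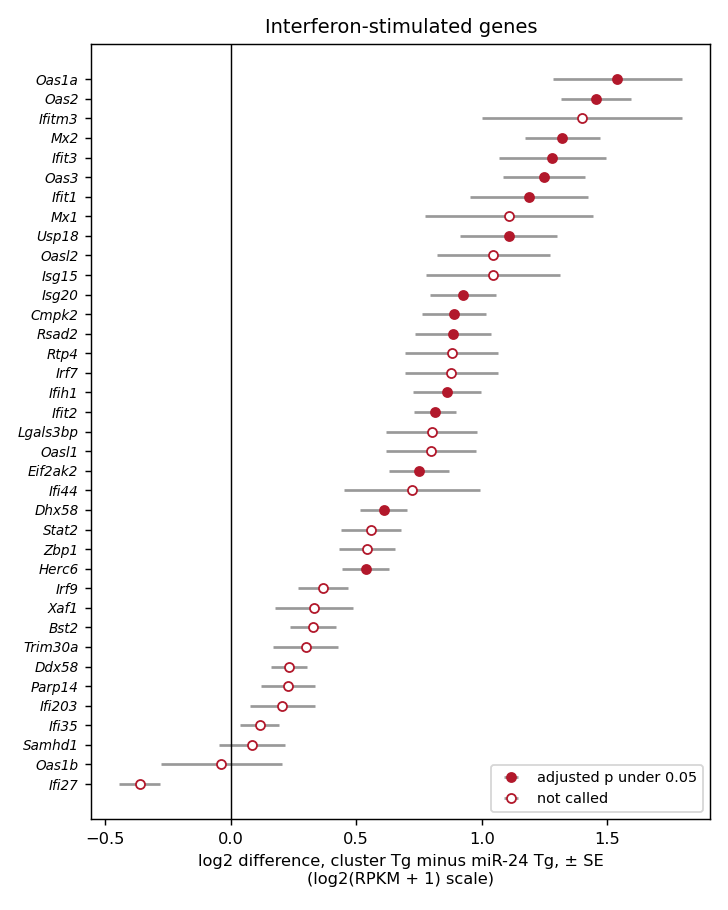
Log2 difference between cluster Tg and miR-24 Tg cells (cluster Tg minus miR-24 Tg, bars show the standard error, 3 libraries each) for 37 of the 38 tested interferon-stimulated genes. The 15 filled points passed an adjusted p of 0.05, and 35 of the 37 points lie right of 0.

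Promoters of interferon-stimulated genes often carry an element whose core is GAAA, any 2 bases and GAAA again, which was searched on both strands from 250 bases before to 50 bases after each start in the RefSeq promoter table (GRCm38.p6). It was found in 7 of the 11 called members with an entry (63.6%), in 7 of the 16 other tested members with an entry (43.8%) and in 302 of the 7906 tested genes with an entry (3.82%). The matches in the called synthetase genes Oas1a and Oas3 are shown as examples, on the strand of the gene, with the match in capitals. For Oas2, also called, no entry with a match was found.
Oas1a: ctcggGAAATGGAAActgaa
Oas3: gaggaGAAAACGAAAgtgaa
They lie at chr5:120907531-120907550 and chr5:120777720-120777739 on the minus strand. A match is a description of these letters and not evidence of binding.

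Cell cycle genes formed another list with increases alone. Of 39 tested genes, 6 rose (E2f2, Cdkn2c, Stmn1, Ccne1, Cdk4 and Mcm7; 15.4%, against 2.83% of all genes) and none fell, with a median of 0.30 and 33 positive differences. E2f2, a transcription factor of the G1/S transition and a known miR-24 target, read 18.6, 16.7 and 17.1 RPKM in cluster Tg libraries, against 8.60, 7.24 and 7.61 RPKM in miR-24 Tg libraries (log2 difference 1.07, SE 0.09, adjusted p = 0.013). WT libraries read 7.74 to 10.9 RPKM. Cdkn2c, which inhibits the cyclin D kinases, averaged 10.6 ± 3.06 RPKM in cluster Tg and 4.54 ± 0.73 RPKM in miR-24 Tg cells (1.05, SE 0.20, adjusted p = 0.043). The microtubule regulator Stmn1 averaged 4.63 ± 0.45 RPKM in cluster Tg and 2.47 ± 0.23 RPKM in miR-24 Tg cells, and the cyclin Ccne1 6.79 ± 0.13 and 4.07 ± 0.78 RPKM in the same order. The list thus holds both drivers and inhibitors of division, and 3 replication-dependent histone genes that were tested did not pass. The count of 6 was 0 without cluster Tg replicate 1, 2 or 3 or miR-24 Tg replicate 3, 1 without miR-24 Tg replicate 1 and 2 without miR-24 Tg replicate 2.

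Of 34 tested genes of the T cell receptor complex and its proximal signalling, Cd4, Cd5, Cd6 and Rasgrp1 rose (11.8%, against 2.83% of all genes) and none fell. The median was 0.07, and the libraries of 38.2% of the members did not overlap upward, against 15.7% of all genes. The count of 4 was 1 without miR-24 Tg replicate 2 and 0 without any other 1 of the 6 libraries. Cd5, an inhibitory co-receptor whose level follows the strength of receptor signals, read 237, 267 and 269 RPKM in cluster Tg libraries, against 168, 165 and 167 RPKM in miR-24 Tg libraries (log2 difference 0.62, SE 0.08, adjusted p = 0.027). Its close relative Cd6 read 218, 226 and 218 RPKM in cluster Tg libraries, against 130, 152 and 145 RPKM in miR-24 Tg libraries (0.63, SE 0.09, adjusted p = 0.027). The co-receptor Cd4 averaged 552 ± 9.17 RPKM in cluster Tg, 377 ± 22.7 RPKM in miR-24 Tg and 464 ± 53.2 RPKM in WT. For Cd5 and Cd6, the WT means of 257 ± 21.5 and 207 ± 27.2 RPKM lay nearer to cluster Tg than to miR-24 Tg. None of 29 tested immediate early genes was called, and their summed level was 5219, 6487 and 3791 RPKM in cluster Tg libraries, against 2761, 10219 and 3910 RPKM in miR-24 Tg libraries, so miR-24 Tg replicate 2 set their spread.

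Of the helper lineage lists, which bear on the differentiation of effector cells, the follicular helper and exhaustion list held the most calls. Of its 17 tested genes, 5 rose (Il21, Cd200, Tox, Tox2 and Slamf6; 29.4%, against 2.83% of all genes) and Cd160 fell (5.88%, against 2.35%), with a median of 0.39. The libraries of 47.1% did not overlap upward, against 15.7% of all genes. The count of 5 was 1 without miR-24 Tg replicate 2 and 0 without any other 1 of the 6 libraries. The co-inhibitory ligand Cd200 averaged 17.7 ± 1.27 RPKM in cluster Tg and 10.6 ± 0.99 RPKM in miR-24 Tg cells (log2 difference 0.69, SE 0.09, adjusted p = 0.027). The nuclear protein Tox2 averaged 3.55 ± 1.03 RPKM in cluster Tg and 1.21 ± 0.26 RPKM in miR-24 Tg cells, and the helper cytokine Il21 1.97 ± 0.13 and 0.91 ± 0.13 RPKM in the same order. Il21 and Tox2 were thus low in absolute level in both genotypes. Il21 averaged under 1 RPKM in miR-24 Tg cells, so its entry to the test rested on the cluster Tg libraries, where it was high.

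Of 13 tested Th1 genes, Ifngr1 fell (7.69%, against 2.35% of all genes) and none rose. Il18r1 averaged 67.0 ± 15.1 RPKM in cluster Tg and 87.4 ± 6.83 RPKM in miR-24 Tg cells, and Stat4 52.4 ± 4.11 and 69.6 ± 10.8 RPKM in the same order, with adjusted p-values of 0.20 and 0.12. Neither was called. None of 10 tested Th2 genes was called, and Gata3, the Th2 factor that is a known miR-27 target, read 38.4, 34.9 and 24.6 RPKM in cluster Tg libraries, against 23.2, 39.2 and 23.3 RPKM in miR-24 Tg libraries (adjusted p = 0.66; named after its values were seen). Il21, whose entry to the test rested on the cluster Tg libraries, was the single call among 10 Th17 genes (10%). Gpr83 was the single call among 17 regulatory T cell genes (5.88%). Both rose, against 2.83% of all genes. Foxp3 read 5.01, 4.81 and 4.51 RPKM in cluster Tg libraries, against 15.9, 5.92 and 4.41 RPKM in miR-24 Tg libraries, so miR-24 Tg replicate 1 was high for it as for the B cell and myeloid genes.

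Among 38 tested effector and memory genes, Vim and Itga4 rose, and Prf1 and Fasl fell (5.26% each way, against 2.83% and 2.35% of all genes). The intermediate filament gene Vim read 641, 536 and 547 RPKM in cluster Tg libraries, against 313, 336 and 345 RPKM in miR-24 Tg libraries (log2 difference 0.79, SE 0.12, adjusted p = 0.031). The integrin chain Itga4, which serves entry into inflamed tissue, read 183, 146 and 126 RPKM in cluster Tg libraries, against 83.3, 89.9 and 86.2 RPKM in miR-24 Tg libraries (0.79, SE 0.14, adjusted p = 0.040). The miR-24 Tg libraries in turn lay above WT, which averaged 267 ± 17.0 RPKM for Vim and 78.0 ± 4.14 RPKM for Itga4. Of 24 tested homing genes, Itga4 and Itga6 rose (8.33%, against 2.83% of all genes) and the chemokine receptor Cxcr4 fell (4.17%, against 2.35%). Cxcr4 averaged 130 ± 10.9 RPKM in cluster Tg and 185 ± 4.37 RPKM in miR-24 Tg cells (adjusted p = 0.037).

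Of 26 tested naive and quiescence genes, Foxo1 rose and Il7r fell (3.85% each way, near the 2.83% and 2.35% of all genes). Il7r, the survival receptor of naive cells, read 321, 283 and 272 RPKM in cluster Tg libraries, against 453, 412 and 516 RPKM in miR-24 Tg libraries (log2 difference -0.65, SE 0.13, adjusted p = 0.044). Foxo1, a factor that sustains naive cells, averaged 91.5 ± 2.81 RPKM in cluster Tg, 69.5 ± 5.15 RPKM in miR-24 Tg and 90.6 ± 5.47 RPKM in WT (0.39, SE 0.08, adjusted p = 0.045). Tcf7, the naive T cell factor TCF1, read 753, 811 and 717 RPKM in cluster Tg libraries, against 445, 524 and 549 RPKM in miR-24 Tg libraries, without overlap but not called (0.59, SE 0.14, adjusted p = 0.063).

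Of 31 tested apoptosis regulators, 2 rose (6.45%, against 2.83% of all genes), Bcl2l2 among them. Fasl, Bid and Casp9 fell (9.68%, against 2.35%), a count of 0 to 2 when any 1 of the 6 libraries was left out. Bid, which links death receptors to the mitochondrion, read 7.03, 6.79 and 6.57 RPKM in cluster Tg libraries, against 15.4, 13.1 and 13.7 RPKM in miR-24 Tg libraries (log2 difference -0.95, SE 0.08, adjusted p = 0.014). Casp9, the initiator caspase of the mitochondrial route, averaged 4.55 ± 0.60 RPKM in cluster Tg and 7.63 ± 0.78 RPKM in miR-24 Tg cells. The prosurvival Bcl2l2 averaged 4.36 ± 0.42 RPKM in cluster Tg and 2.08 ± 0.58 RPKM in miR-24 Tg cells.

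Of 25 tested miR-23 targets from earlier literature, Ppif and Hmgn2 fell (8%, against 2.35% of all genes) and none rose (median -0.03). Of 22 tested miR-27 targets, Abca1, Phb and Ccng1 fell (13.6%, against 2.35%) and Foxo1 rose (4.55%, against 2.83%), with a median of -0.07. The 3 decreases were not called in any of the 6 fits without 1 library. Ppif, the cyclophilin D of the mitochondrial permeability pore, read 12.2, 12.5 and 8.95 RPKM in cluster Tg libraries, against 24.6, 26.9 and 24.5 RPKM in miR-24 Tg libraries (log2 difference -1.12, SE 0.13, adjusted p = 0.022). Abca1, the cholesterol exporter, averaged 9.02 ± 0.90 RPKM in cluster Tg and 13.5 ± 0.43 RPKM in miR-24 Tg cells (-0.54, SE 0.09, adjusted p = 0.035). Abca1 in WT (7.71 ± 3.02 RPKM) was nearer to cluster Tg. Of 30 tested miR-24 targets, E2f2, Mxi1, Clic4 and Cdk4 rose (13.3%, against 2.83%) and Casp9 fell (3.33%, against 2.35%), with a median of 0.15, although both transgenes include miR-24.

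Seed sites were then counted in the longest annotated 3′ UTR of each gene (GENCODE M21, GRCm38, available for 9524 tested genes). They were the 8-base sites AATGTGAA for miR-23, ACTGTGAA for miR-27 and CTGAGCCA for miR-24. Genes with a miR-23 site (668) had a median log2 difference of -0.069, and 14 were called higher and 42 lower (2.10% and 6.29%). Genes with a miR-27 site (580) had a median of -0.081, and 9 were called higher and 34 lower (1.55% and 5.86%). Genes with a miR-24 site (821) had a median of 0.012, with 32 higher and 12 lower (3.90% and 1.46%). All 9524 genes had a median of 0.0038 with 2.95% higher and 2.36% lower, and the 5678 genes with no 7-base site of the 3 microRNAs had a median of 0.016 with 3.01% and 1.83%. Genes with miR-23 or miR-27 sites were called lower more often than higher with all 6 libraries, whereas the shares of genes with miR-24 sites were near those of genes with no site. The miR-23 and miR-27 classes share genes, Ppif among them, so their shifts are not independent. Of 1554 genes with a miR-23 site of 7 bases or longer and 1606 with such a miR-27 site, 417 had both. The 42 lower calls of the miR-23 class were 17 without miR-24 Tg replicate 2 and 0 to 2 without any other 1 library, and the 34 of the miR-27 class were 7 and 0 to 1 in the same order. With 16 libraries sharing the spread and 1 left out, they were 62 to 93 and 55 to 83.

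The shift was small for a single gene, with 62.3% of genes with a miR-23 site and 62.2% with a miR-27 site below 0, against 49.2% of all genes with a UTR. Genes with sites had longer UTRs, with medians of 2628 bases for miR-23, 2631 for miR-27 and 2522 for miR-24, against 1143 for all, and a median GC content of 40.9%, 42.5% and 45.5%, against 44.6%. Among UTRs of 1500 to 4000 bases, a range chosen after the data were seen, the medians were -0.060 for 314 genes with a miR-23 site, -0.071 for 303 with a miR-27 site, 0.029 for 396 with a miR-24 site and 0.044 for 1192 with no site. The medians of the miR-23 and miR-27 classes were negative under every alternative, and the part of UTR length and GC content in them was not tested further.

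**Figure D4:**
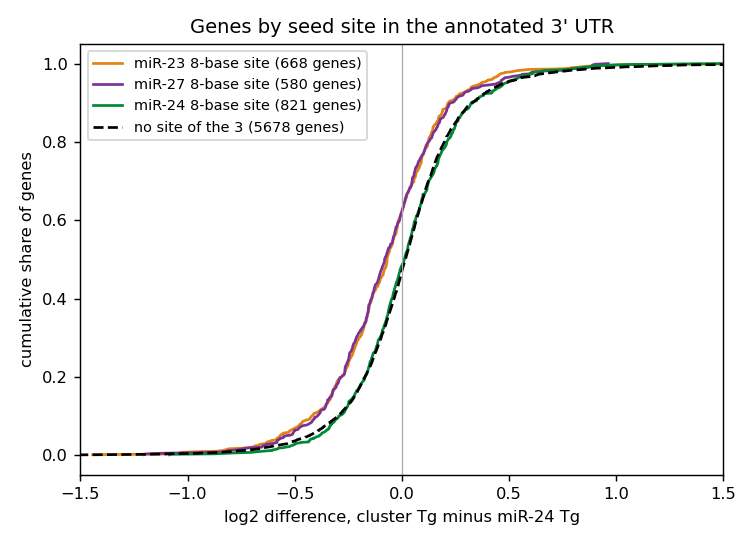
Cumulative share of genes against the log2 difference (cluster Tg minus miR-24 Tg) for genes with an 8-base site of miR-23 (668 genes), miR-27 (580) or miR-24 (821) and for 5678 genes with no 7-base site. The miR-23 and miR-27 curves lie left of the others, with 62.3% and 62.2% of genes below 0, and the miR-24 curve follows the no-site curve.

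The sites of the called lower genes with the smallest adjusted p are shown with flanking bases, on the strand of the transcript, with the site in capitals. For miR-23 they are as follows.
Rcn1: aaaaagatAATGTGAAcaaaaa
Adi1: gccacaaaAATGTGAAaaagtg
Ppif: ttctgctcAATGTGAAttcccg
Pde7a: attgtggaAATGTGAAatggtc
For miR-27 they are as follows.
Serpini1: atattgaaACTGTGAAccactt
Ppif: tcctggtcACTGTGAAtcctgc
Zbtb18: aacatagcACTGTGAAagagag
Gfpt1: acaccggaACTGTGAAtaaatt
Ppif carries both, in windows at chr14:25700163-25700184 (miR-27) and chr14:25700261-25700282 (miR-23) on the plus strand of GRCm38, with sites starting at bases 569 and 667 of a UTR of 866 bases. The miR-23 window of Rcn1 lies at chr2:105387287-105387308 on the minus strand, and the miR-27 window of Serpini1 at chr3:75640983-75641004 on the plus strand.

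Rcn1 and Serpini1 headed the miR-23 and the miR-27 genes in that order by adjusted p. Rcn1, a calcium-binding protein of the endoplasmic reticulum, read 5.52, 5.97 and 5.16 RPKM in cluster Tg libraries, against 11.1, 10.1 and 10.9 RPKM in miR-24 Tg libraries (log2 difference -0.84, SE 0.08, adjusted p = 0.016), with 5.36 to 5.63 RPKM in miR-23 Tg, 6.65 to 10.6 RPKM in miR-27 Tg and 9.79 to 11.9 RPKM in WT. Serpini1, the protease inhibitor neuroserpin, read 1.92, 2.06 and 2.11 RPKM in cluster Tg libraries, against 5.06, 4.51 and 4.82 RPKM in miR-24 Tg libraries (-0.94, SE 0.08, adjusted p = 0.014), with 3.68 to 4.51 RPKM in miR-23 Tg, 1.16 to 2.25 RPKM in miR-27 Tg and 4.32 ± 0.28 RPKM in WT. For Rcn1 the miR-23 Tg libraries and for Serpini1 the miR-27 Tg libraries lay near the cluster Tg level. Ppif, with both sites, ranged from 19.1 to 22.8 RPKM in miR-23 Tg, from 8.82 to 15.6 RPKM in miR-27 Tg and from 25.9 to 28.3 RPKM in WT. The phosphodiesterase Pde7a, the methionine salvage enzyme Adi1, the repressor Zbtb18 and Gfpt1, the first enzyme of the hexosamine pathway, fell by 0.81, 0.83, 0.63 and 0.48 on the log2 scale.

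Ribosomal protein genes were mostly lower without passing the test for single genes. Of 44 tested, Rpl22 fell (2.27%, against 2.35% of all genes) and none rose. The libraries of 26 did not overlap downward (59.1%, against 15.9% of all genes). Of the 44 genes, 39 had negative differences, with a median of -0.42. Their summed level was 18545, 23917 and 27858 RPKM in cluster Tg libraries, against 33352, 33529 and 31362 RPKM in miR-24 Tg libraries. Rplp1 averaged 2672 ± 681 RPKM in cluster Tg and 4100 ± 472 RPKM in miR-24 Tg cells (log2 difference -0.65, SE 0.33, adjusted p = 0.28). The share of the summed RPKM taken by the 3 hairpins was 42.6%, 20.8% and 13.3% in cluster Tg replicates 1, 2 and 3. It was between 2.56% and 7.05% in the miR-24 Tg libraries. Within cluster Tg the library with the largest share had the lowest ribosomal sum. Within miR-24 Tg the library with the largest share (replicate 2, 7.05%) had the highest ribosomal sum (33529 RPKM). The median log2 difference over all tested genes was 0.0016. RPKM is scaled to gene length, so the hairpin share is not a share of reads. Its part in the ribosomal result was not tested. The list's median was negative under every alternative (-0.55 to -0.25), quantile normalisation and median-ratio scaling included.

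Genes of antigen presentation and of other blood cells moved with miR-24 Tg replicate 1. None of 11 tested MHC class II genes was called, with a median of -0.57 that became -0.28 without that library. The invariant chain Cd74 read 52.2, 44.7 and 80.3 RPKM in cluster Tg libraries, against 230, 62.4 and 78.0 RPKM in miR-24 Tg libraries (log2 difference -0.85, SE 0.51, adjusted p = 0.35). WT libraries read 10.6 to 18.5 RPKM, below every library of both genotypes. Of 17 tested B cell genes, Cd72 fell (5.88%, against 2.35% of all genes) and none rose. Their median of -0.45 became -0.036 without miR-24 Tg replicate 1. Cd72 itself read 11.1, 12.7 and 15.2 RPKM in cluster Tg libraries, against 31.1, 28.4 and 25.4 RPKM in miR-24 Tg libraries (-1.07, SE 0.13, adjusted p = 0.023), whereas the B cell receptor chain Cd79a read 3.86, 3.65 and 6.87 RPKM in cluster Tg libraries, against 15.3, 3.13 and 6.39 RPKM in miR-24 Tg libraries. Cd72 was thus high in all 3 miR-24 Tg libraries, and Cd79a in replicate 1.

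Of 9 tested myeloid and neutrophil genes, the integrin Itgam rose (11.1%, against 2.83% of all genes) and none fell. Itgam read 16.7, 10.1 and 9.69 RPKM in cluster Tg libraries, against 4.06, 5.74 and 3.12 RPKM in miR-24 Tg libraries (log2 difference 1.30, SE 0.26, adjusted p = 0.046), while the neutrophil gene S100a8 read 0, 0 and 0.32 RPKM in cluster Tg libraries, against 46.3, 12.7 and 1.70 RPKM in miR-24 Tg libraries. Itgam was thus higher and S100a8 lower in every cluster Tg library. The defining markers Csf1r and Cd14 stayed at or below 1.29 RPKM in all 6.

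**Figure D5:**
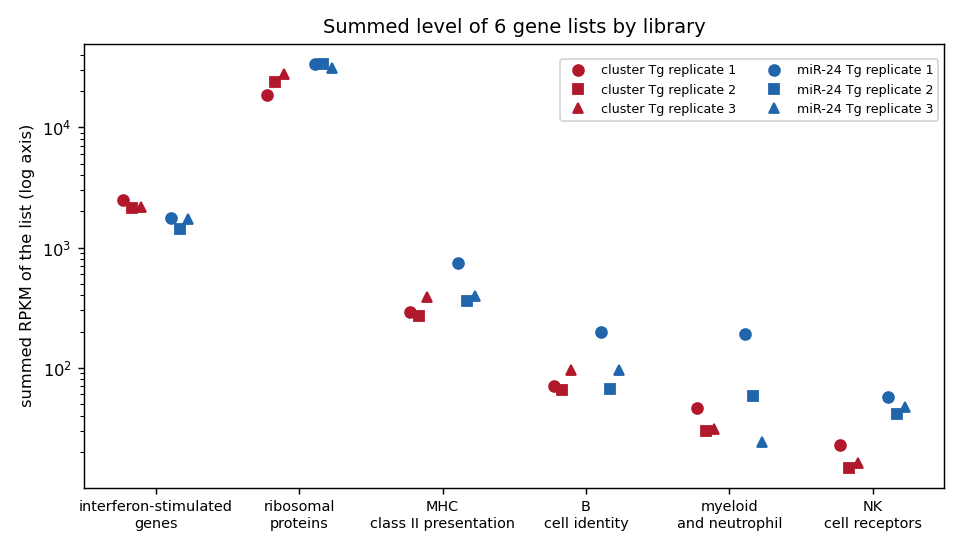
Summed RPKM of all members of 6 gene lists on a log axis in each cluster Tg library (red) and each miR-24 Tg library (blue), with circle, square and triangle for replicates 1, 2 and 3. Interferon-stimulated genes are higher and ribosomal protein genes lower in every cluster Tg library, the natural killer receptor sum is lower there but overlaps once Klrd1 is left out, and the class II, B cell and myeloid sums are highest in miR-24 Tg replicate 1.

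Of 22 tested glycolysis genes, Pfkl, a liver-type phosphofructokinase, rose (4.55%, against 2.83% of all genes). Pfkl averaged 24.0 ± 2.10 RPKM in cluster Tg and 16.8 ± 0.83 RPKM in miR-24 Tg cells (adjusted p = 0.038). Of 25 tested cholesterol genes, Abca1 was the single call (4% lower, against 2.35% of all genes). None of the 33 listed respiratory chain subunits or 17 heat shock and stress genes passed. The complex I subunit Ndufa3, called lower above (log2 difference -1.44), was not on that list. Of 19 tested microRNA machinery genes, the Dicer partner Tarbp2 (9.62 ± 0.41 RPKM in cluster Tg, 6.48 ± 0.11 RPKM in miR-24 Tg, adjusted p = 0.027) and the Argonaute Ago1 (28.3 ± 0.67 and 21.5 ± 0.77 RPKM in the same order, adjusted p = 0.033) rose (10.5%, against 2.83% of all genes). Of 20 tested TGF-beta pathway genes, the ligand Tgfb3 rose (5%, against 2.83% of all genes). The receptor Tgfbr2 averaged 163 ± 4.36 RPKM in cluster Tg and 169 ± 14.2 RPKM in miR-24 Tg cells. Of 23 regulators of G protein signalling and small GTPases, Rac1 rose (4.35%, against 2.83% of all genes). Rac1 averaged 128 ± 3.68 RPKM in cluster Tg and 101 ± 4.58 RPKM in miR-24 Tg cells (adjusted p = 0.048).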

How the data were processed

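Total RNA was sequenced from sorted naive CD4 T cells. The authors deposited a table of RPKM values per gene (gene-length and library-size scaled), made, per the submitters' processing notes, with the mm9 build, HOMER and STAR (version 2.2.0c). No source used here gives the role of each tool, how reads that map to several places were counted or whether strand was used. Rows with symbols turned into dates by a spreadsheet (27) were left out. Some hairpin rows hold values far below 1 read, so reads of near-identical copies may have been split by an estimate. Depth is known only as a ratio, taken as the commonest ratio of values under 0.1 RPKM between libraries; it gives no counting interval. A column name shared by 2 miR-23 Tg columns leaves their replicate numbers open; those columns serve as levels and, with the other genotypes, in the fits of 18 and 16 libraries.

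From these values log2(RPKM + 1) was computed and fitted with limma 3.58.1 in R 4.3.3 (eBayes with a variance trend) on the 6 libraries, with Benjamini-Hochberg adjustment over 10594 genes; a fold change on this scale understates that of low genes. Tested on simulated data for this comparison (10594 genes), the fit recovered 74% of 100 genes changed by 1 and 26% of 100 changed by 0.5 on the log2 scale, with 2 false calls. The simulated noise was independent between genes and held no variation shared by genes within a library. These false calls therefore do not give the error rate of the calls in the real libraries. The smallest exact permutation p for 3 against 3 is 0.1, so single-gene permutation tests were not used. Named genes were the hairpins, the 15 called genes with the largest change each way (mean of at least 5 RPKM in a genotype, no overlap between libraries), for each list up to 4 called members per direction by adjusted p and up to 3 abundant others, marker genes, and up to 4 called lower genes with an 8-base site per microRNA; small RNA rows (6 of 297 called) were left out of the second group. A few list members are counted but not reported here by name. Lists are described by counts and medians, without a test. The members and lists were chosen with earlier results of these data known. Alternatives covered the pseudocount (0.1 and 5), the filter, quantile and median-ratio scaling, the libraries in the fit, the variance trend, a replicate block and leaving out each library. Seed sites and promoters were read from GRCm38 annotations, by gene symbol, and not from the mm9 build of the files.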

Additional observations from a re-analysis of the deposited data

How the results depend on the processing

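The count of 549 called genes (300 higher, 249 lower) was 535 and 557 with pseudocounts of 0.1 and 5, 442 with a filter at 5 RPKM, 476 under quantile normalisation, 546 under median-ratio scaling and 506 without the variance trend. It was 160 (97 higher, 63 lower) without a filter on level, where more genes were tested, 238 (141 and 97) in the fit of all 18 libraries and 1697 (876 and 821) in the fit of 16 libraries, which leaves out a miR-27 Tg and a double-knockout library that stood apart in an earlier analysis of these data. Leaving out 1 library gave 4 to 182 calls (0 to 101 higher, 1 to 81 lower) in the 6-library fit, where 3 residual degrees of freedom remain. In the 16-library fit, an alternative added after seeing the data, it was 1004 (553 higher, 451 lower), 1157 (608, 549) and 1600 (761, 839) without cluster Tg replicates 1, 2 and 3, and 1187 (651, 536), 1456 (748, 708) and 1118 (590, 528) without miR-24 Tg replicates 1, 2 and 3. At an unadjusted p under 0.05 the 6-library fits without 1 library held 1947 to 2738 genes, against 2647 with all 6.

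With the replicate number as a block, 8 genes were called (6 higher, 2 lower). No gene with an 8-base miR-23 or miR-27 site was among them. The deviations of same-numbered libraries from their genotype means correlated at 0.087, 0.23 and 0.13 for replicates 1, 2 and 3, so the numbers were not taken to pair the libraries, and a call lost under the block is not a smaller difference. Mir24-2 reversed to -1.28 under quantile normalisation, to -0.21 without cluster Tg replicate 1 and to -0.043 without miR-24 Tg replicate 1, with a highest value of 0.87 when 1 library was left out. None of 77 named called genes reversed. The libraries of every called gene did not overlap, so only quantile and median-ratio scaling could have reversed a difference. Of the 77, 74 kept their call in the fit of 16 libraries, 69 to 74 there with 1 library left out and 43 in the fit of 18 libraries. The number was 69 under quantile normalisation and 0 to 34 in the 6-library fits without 1 library. The cause of these losses was not tested. The unknown depth limits what can be said of genes near 1 RPKM.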
